A study of Mus musculus with 9 samples.

Results

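The eicosanoid and epidermal phospholipase genes described here are 10 genes chosen by symbol from the deposited read count table: the phospholipases Pla2g2f, Pla2g4d and Pla2g4e, the prostaglandin enzymes Ptgs1, Ptgs2 and Ptges, and the lipoxygenase genes Alox5, Alox5ap, Alox12 and Alox15. Each symbol matched exactly 1 of the 56859 genes in the table, and all 10 genes were among the 18005 with enough reads to be tested. Pla2g4d passed that filter only through its reads in the 2 challenged groups, so it had to differ from vaseline and is kept apart from the counts against vaseline below. RNA was sequenced from shaved back skin of wild-type, specific-pathogen-free BALB/c mice aged 6 to 8 weeks, in 3 groups of 3 libraries. The vaseline group received vaseline for 7 days. The IMQ group received imiquimod for 7 days, a cream whose drug activates Toll-like receptor 7 and which is used to model psoriasis in mice. The bergapten group received IMQ for 7 days and a gel with bergapten, a plant furanocoumarin, for 2 days. No IMQ group with an empty gel was analysed here, so the gel base and bergapten cannot be told apart. The labels also do not say that the 3 libraries of a group came from separate animals. The p-values therefore rest on the spread between these libraries, and that spread may be technical.

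Eicosanoids are signalling lipids made from arachidonic acid. Phospholipases A2 free fatty acids from membrane phospholipids, cyclooxygenases turn arachidonic acid into the prostaglandin precursor, and lipoxygenases turn it into leukotrienes and hydroxy fatty acids. In skin, prostaglandin E2 takes part in vasodilation and pain, leukotriene B4 attracts neutrophils, and several lipoxygenases and phospholipases act within keratinocytes, where lipids also build the water barrier. Transcript levels were measured, not enzyme amounts or lipids.

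The libraries held 15855439 to 19862905 reads counted to genes. Libraries of IMQ skin varied most: the mean variance of log2 CPM (counts-per-million, the reads of a gene scaled to a common library size) was 0.238 in IMQ skin, 0.1002 in vaseline skin and 0.102 with bergapten, and IMQ replicate 2 lay farthest from its group mean, with a root mean square deviation of 0.442 on the log2 CPM scale against 0.349 and 0.399 in IMQ replicates 1 and 3. Keratinocyte markers were abundant in every library, with a summed level of 8 suprabasal markers of 5511 to 6021 CPM in vaseline, 10590 to 21960 CPM in IMQ and 15870 to 20900 CPM in bergapten libraries. The summed level of 6 fibroblast markers was 67560 to 70140, 6446 to 14010 and 16050 to 21250 CPM in the same order. The make-up of the counted RNA thus differed between vaseline and challenged skin. In bulk tissue, fewer cells of a type and less RNA per cell cannot be told apart.

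In IMQ skin against vaseline skin, 4 of the 9 genes other than Pla2g4d rose (Pla2g4e, Ptgs2, Ptges and Alox5ap) and 3 fell (Ptgs1, Alox5 and Alox15). Pla2g4d was near 0 in vaseline skin and present in IMQ skin. In the same edgeR quasi-likelihood test 43.2% of all genes tested were called at an adjusted p below 0.05, 23.0% higher and 20.2% lower. The median log2 fold change of the 9 genes was 0.85, against 0.03 over all genes tested. The groups did not overlap for 8 of the 9 genes, and for 52.3% of all genes. Between bergapten and IMQ skin 0 of the 10 genes passed, where 4.83% of all genes did, 2.18% higher and 2.65% lower. At an unadjusted p below 0.05 there were 3 (Ptgs1, Ptgs2 and Alox15), against 22.3% of all genes, and the DESeq2 Wald test called 2 of the 10 (Ptgs2 and Alox15), against 9.91% of the 18185 genes to which it gave an adjusted p. In bergapten skin against vaseline skin 4 of the 9 rose (Pla2g4e, Ptges, Alox5ap and Alox12) and 3 fell (Ptgs1, Alox5 and Alox15), where 40.4% of all genes were called, 20.9% higher and 19.5% lower.

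**Figure D1:**
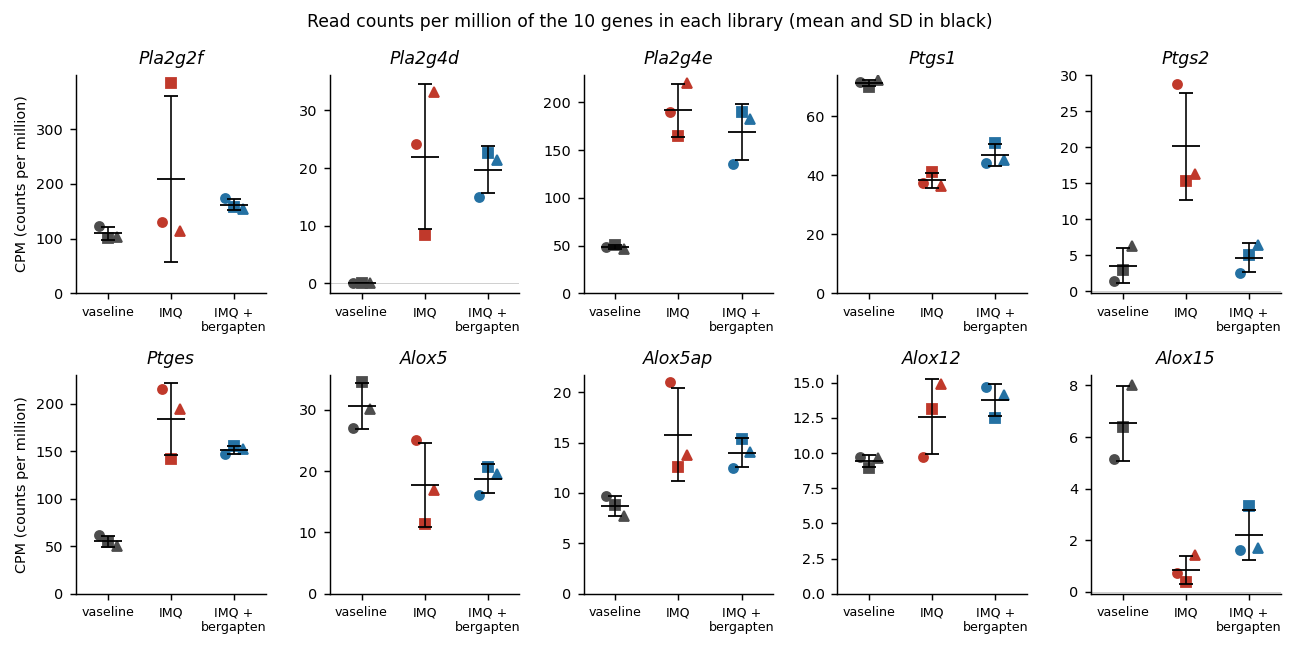
The CPM of each of the 10 genes in every library, with vaseline in grey, IMQ in red and IMQ with bergapten in blue, circles, squares and triangles for replicates 1, 2 and 3, and the mean and SD of each group in black. Pla2g4d is near 0 in all 3 vaseline libraries and between 8.36 and 33.2 CPM in IMQ skin, while Ptgs2 is high in the 3 IMQ libraries alone.

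Pla2g4d and Pla2g4e encode cytosolic phospholipases A2 of the delta and epsilon type. The delta enzyme is known from human psoriatic epidermis, and the epsilon enzyme transfers acyl chains to make N-acyl-phosphatidylethanolamines. Pla2g4d (ENSMUSG00000070719, GRCm39 chromosome 2, 120096076 to 120119678, minus strand) had 0, 1 and 1 reads in the vaseline libraries. The 0 in vaseline replicate 1 allows up to 0.165 CPM, taking 3 reads as the limit. In the IMQ libraries it had 467, 155 and 653 reads, or 24.3, 8.36 and 33.2 CPM, and in the bergapten libraries 252, 457 and 419 reads, or 15.1, 22.7 and 21.4 CPM. The gene was thus close to undetected in vaseline skin and present in every challenged library, with IMQ replicate 2 the lowest of those 6. Summed over the group, 1275 reads in IMQ skin against 2 in vaseline skin gave a ratio of 559 after scaling for depth, with an exact 95% interval of 154 to 4617 that covers counting error only. In the edgeR test with no filter on low counts, which keeps every gene with a read, the adjusted p was 0.000739. The gene was chosen with earlier results of these data known, so this value is not independent support for the rise.

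Pla2g4e (ENSMUSG00000050211, chromosome 2, 119996893 to 120075816, minus strand) stood at 49.1, 51.1 and 46.7 CPM in vaseline, 190.0, 165 and 220.4 CPM in IMQ, and 136, 189.9 and 182 CPM in bergapten libraries. All 6 challenged libraries lay above all 3 vaseline libraries. The group means were 49.0 ± 2.17, 192 ± 27.9 and 169 ± 29.3 CPM (SD, n = 3 each). Pla2g4e rose 3.92-fold with IMQ (log2 fold change 1.97, SE 0.14, adjusted p = 6.05e-06 in the edgeR test).

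Pla2g2f encodes a secreted phospholipase A2 that in mouse skin is made by suprabasal keratinocytes. The gene (ENSMUSG00000028749, chromosome 4, 138477844 to 138484937, minus strand) stood at 123, 102 and 104 CPM in vaseline, 130.1, 383 and 114 CPM in IMQ, and 174, 158 and 154 CPM in bergapten libraries. IMQ replicate 2 was more than 2 times every other library, and the other IMQ libraries overlapped vaseline. The difference between IMQ and vaseline did not pass (0.93, SE 0.42, adjusted p = 0.113). Without IMQ replicate 3 it passed (adjusted p = 0.0491), and without IMQ replicate 2 it came to 0.16 on the log2 scale. The suprabasal keratinocyte markers, of which 5 of 8 rose with IMQ and none was at 0, also had their highest sum, 21960 CPM, in IMQ replicate 2. Their part in the Pla2g2f level was not tested. The bergapten libraries lay above the vaseline libraries without overlap, at a mean of 162 ± 10.3 against 109.5 ± 11.7 CPM (SD, n = 3 each). That difference did not pass in the fit of all 9 libraries (0.56, SE 0.42, adjusted p = 0.327). It passed when the 6 libraries compared were fitted alone (adjusted p = 0.000208).

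Both phospholipase families lie in gene groups, and the neighbours were measured too. Their calls stand beside the 23.0% of all genes tested that rose and the 20.2% that fell with IMQ. On chromosome 2, Pla2g4b (119863898 to 119873511), Pla2g4e, Pla2g4d and Pla2g4f (120130438 to 120144646) lie within one stretch, and Pla2g4b, Pla2g4e and Pla2g4f rose with IMQ beside the rise of Pla2g4d given above. Pla2g4f, the zeta enzyme of the family, went from 26.0 ± 3.30 to 143 ± 6.98 CPM (log2 fold change 2.46, SE 0.10, adjusted p = 3.24e-07) and stood at 180.3 ± 5.60 CPM with bergapten (SD, n = 3 each). Pla2g4b was scarce, at 0.262 and 1.21 CPM, and likewise passed the filter only through challenged libraries (2.20, SE 0.65, adjusted p = 0.0203, and 0.00879 with no filter). These p-values are likewise not independent support for the rise of Pla2g4b. Its call was lost in 2 of the 6 fits without 1 library (adjusted p up to 0.0575). On chromosome 4 the 3 neighbours of Pla2g2f that were tested fell, while Pla2g2c and Pla2g2a, with 6 and 4 reads in all, were too scarce to test. Pla2g2d, a secreted enzyme of dendritic cells and macrophages, fell by 1.97 on the log2 scale (SE 0.18, adjusted p = 2.53e-05). Pla2g5 fell by 2.26 (SE 0.29, adjusted p = 0.000194) and Pla2g2e, known from mouse hair follicles, by 2.46 (SE 0.28, adjusted p = 8.32e-05). Pla2g4a, the cytosolic enzyme best known for releasing arachidonic acid, stood at 31.1 CPM in vaseline and 32.5 CPM in IMQ skin (0.07, SE 0.11, adjusted p = 0.66). Members of these families resemble each other, and how the counting treated reads shared between copies is not given in the sources used here, so the split between members is uncertain.

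**Figure D2:**
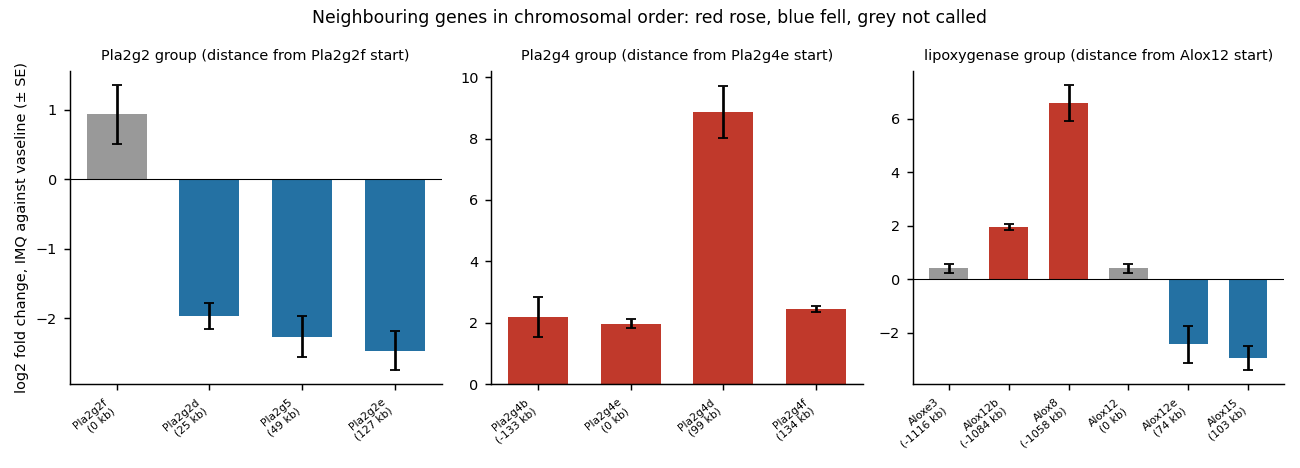
Log2 fold change of IMQ against vaseline with its SE for the tested genes of 3 gene groups, in chromosomal order, with the distance in kilobases from the start of Pla2g2f, Pla2g4e or Alox12 under each name; red bars rose, blue bars fell and grey bars did not pass. All 4 genes of the Pla2g4 group lie above 0 in red, while Pla2g2d, Pla2g5 and Pla2g2e fell beside Pla2g2f. Of the Pla2g4 genes, Pla2g4d and Pla2g4b passed the filter on low counts only through challenged libraries. Of all genes tested 23.0% rose and 20.2% fell.

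The prostaglandin enzymes split. Ptgs1 and Ptgs2 encode the cyclooxygenases COX-1, which most tissues make at a steady level, and COX-2, which inflammatory signals induce. Ptges encodes microsomal prostaglandin E synthase, which turns the cyclooxygenase product into prostaglandin E2. Ptgs1 (ENSMUSG00000047250, chromosome 2, 36120438 to 36142284, plus strand) stood at 71.4, 69.9 and 72.1 CPM in vaseline, 37.5, 40.9 and 36.2 CPM in IMQ, and 44.2, 50.9 and 45.0 CPM in bergapten libraries. The 3 groups did not overlap: vaseline was highest, IMQ lowest and bergapten between them. Ptgs1 fell 1.86-fold with IMQ (log2 fold change -0.90, SE 0.09, adjusted p = 2.95e-05 in the edgeR test), and its SD within a group was at most 3.70 CPM.

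Ptgs2 (ENSMUSG00000032487, chromosome 1, 149975782 to 149983978, plus strand) moved in the opposite direction. It stood at 1.48, 2.94 and 6.30 CPM in vaseline libraries, from 27, 45 and 106 reads. In the IMQ libraries it stood at 28.7, 15.3 and 16.3 CPM, from 552, 284 and 321 reads. In the bergapten libraries it was at 2.51, 5.02 and 6.47 CPM, from 42, 101 and 127 reads. The IMQ libraries all lay above the other 6, and the bergapten libraries overlapped the vaseline libraries. Ptgs2 rose 5.63-fold with IMQ (2.49, SE 0.53, adjusted p = 0.00554).

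Ptges (ENSMUSG00000050737, chromosome 2, 30779483 to 30819875, minus strand) stood at 61.3, 54.2 and 50.2 CPM in vaseline, 216, 142 and 194 CPM in IMQ, and 147, 156 and 153 CPM in bergapten libraries. Every challenged library had more than 2 times the level of any vaseline library. The means were 55.2 ± 5.66, 184 ± 38.1 and 152 ± 4.21 CPM (SD, n = 3 each), and the rise with IMQ was 3.33-fold (SE 0.15 on the log2 scale, adjusted p = 1.36e-05).

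The balance of the 2 cyclooxygenase transcripts within a library was followed per length, as the ratio of Ptgs2 to Ptgs1 FPKM (the authors' values scaled for gene length and depth). The ratio was 0.0134, 0.0271 and 0.0563 in vaseline libraries, 0.492, 0.241 and 0.290 in IMQ libraries, and 0.0366, 0.0634 and 0.0926 in bergapten libraries. Ptgs1 was thus the more abundant transcript in all 9 libraries, and the IMQ ratios lay above all others. The log2 ratio was higher by 3.58 in IMQ than in vaseline libraries, and with bergapten it was lower than in IMQ libraries (log2 difference -2.44). Both comparisons gave a two-sided exact permutation p of 0.1, the smallest that 3 against 3 libraries allow (0.15 adjusted over the 3 comparisons made). Between bergapten and vaseline libraries the log2 difference was 1.13, and these groups overlapped (exact p = 0.2, adjusted 0.2).

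**Figure D3:**
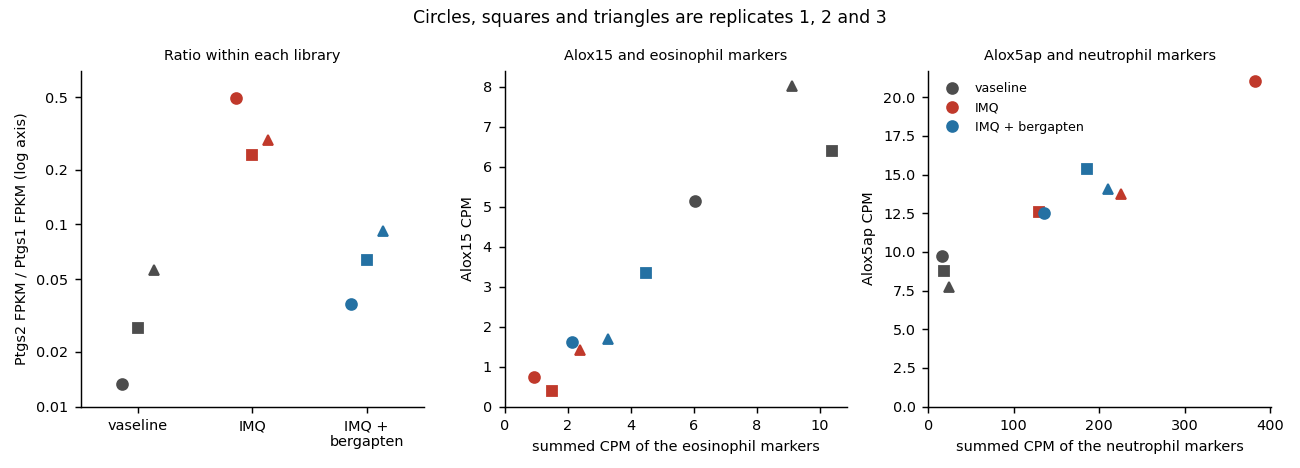
Left, the ratio of Ptgs2 to Ptgs1 FPKM in each library on a log axis; centre, Alox15 CPM against the summed CPM of 5 eosinophil markers; right, Alox5ap CPM against the summed CPM of 8 neutrophil markers; each point is a library. The IMQ ratios of 0.241 to 0.492 lie above those of vaseline and bergapten libraries, and the IMQ libraries, at 0.377 to 1.42 CPM of Alox15, have eosinophil sums of 0.935 to 2.39 CPM against 6.03 to 10.4 CPM in vaseline.

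Stretches upstream of RefSeq starts of these genes are shown because the cyclooxygenase genes moved in opposite directions while Ptges and Pla2g4e rose with Ptgs2. Each is the 250 bases before a RefSeq start of the gene, read 5′ to 3′ on the gene's strand. The windows are on GRCm38.p6, a build older than the GRCm39 of the counts. Capitals mark a match to a searched motif.
Ptgs1 (chr2:36230176-36230425, plus): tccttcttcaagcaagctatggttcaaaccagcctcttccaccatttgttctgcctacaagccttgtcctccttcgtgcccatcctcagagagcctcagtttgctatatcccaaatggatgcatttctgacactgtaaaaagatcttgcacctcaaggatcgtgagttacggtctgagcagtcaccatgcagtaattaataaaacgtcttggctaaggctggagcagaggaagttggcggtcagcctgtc
Ptgs2 (chr1:150099781-150100030, plus): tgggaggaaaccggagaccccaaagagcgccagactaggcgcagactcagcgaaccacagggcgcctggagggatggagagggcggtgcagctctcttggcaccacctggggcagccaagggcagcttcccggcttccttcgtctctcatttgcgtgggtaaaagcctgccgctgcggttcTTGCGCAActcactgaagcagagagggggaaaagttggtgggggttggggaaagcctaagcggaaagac
Ptges (chr2:30903298-30903547, minus): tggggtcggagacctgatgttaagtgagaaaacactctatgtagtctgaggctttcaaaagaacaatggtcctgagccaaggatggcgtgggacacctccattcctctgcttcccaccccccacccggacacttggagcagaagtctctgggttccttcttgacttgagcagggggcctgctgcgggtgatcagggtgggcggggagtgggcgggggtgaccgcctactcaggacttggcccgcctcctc
Pla2g4e (chr2:120245336-120245585, minus): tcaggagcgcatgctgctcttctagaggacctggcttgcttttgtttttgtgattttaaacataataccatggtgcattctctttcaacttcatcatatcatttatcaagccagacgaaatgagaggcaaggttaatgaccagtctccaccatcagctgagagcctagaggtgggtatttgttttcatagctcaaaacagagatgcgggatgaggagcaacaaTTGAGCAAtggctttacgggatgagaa
RefSeq windows were matched for 8 of the 10 genes, all but Alox15 and Alox5ap. They were searched on both strands for the TATA box as TATAAA, the AP-1 site as TGANTCA, the core of the cAMP response element as TGACGT, the C/EBP site as TTGCNNAA, the E-box as CACGTG, and the NF-kappaB site. The Ptgs2 window held TTGCNNAA at positions -69 to -62 from the start, where the palindromic letters match on both strands. The Pla2g4e window held it on the minus strand at -27 to -20, and the Pla2g4d window held TATAAA on the minus strand at -31 to -26. In the GENCODE annotation of the same build, 128 of the 250 bases of the Pla2g4d window, this match included, lie in an exon of the gene, as do 28 bases of the Pla2g2f window, so those bases are not upstream of every annotated start. The 4 windows printed above hold no annotated exon of their gene. Placed by the offset between the builds at Ptgs1, however, the Ptges window lies inside the deposited span of Ptges. It is therefore not upstream of every start of that gene. These matches did not overlap each other, and the other 5 windows held none of the motifs. TTGCNNAA occurs in 9.56% and TATAAA in 12.37% of 32851 windows of this length, AP-1 in 6.75%, TGACGT in 6.47%, NF-kappaB in 7.25% and the E-box in 6.02%. A match is a description of the letters and not of binding. The Ptgs2 window had 61.6% GC and 13 CpG dinucleotides, that of Ptges 59.6% and 8, that of Ptgs1 48.0% and 5, and that of Pla2g4e 43.2% and 4.

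The lipoxygenase genes were mixed. Alox5 encodes the enzyme that starts leukotriene synthesis, mainly in leukocytes, and Alox5ap encodes the membrane protein that hands arachidonic acid to it. Alox5 (ENSMUSG00000025701, chromosome 6, 116387038 to 116438139, minus strand) stood at 27.0, 34.5 and 30.1 CPM in vaseline, 25.0, 11.3 and 17.0 CPM in IMQ, and 16.1, 20.7 and 19.5 CPM in bergapten libraries. Vaseline lay above both challenged groups, with IMQ replicate 1 just below vaseline replicate 1. Alox5 fell with IMQ by 0.78 on the log2 scale (SE 0.25, adjusted p = 0.028 in the edgeR test). This call was lost in 6 of 11 alternatives, among them the fit without vaseline replicate 2 (adjusted p = 0.0817), without vaseline replicate 3 (0.0583) and without IMQ replicate 3 (0.0674).

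Alox5ap (ENSMUSG00000060063, chromosome 5, 149201577 to 149224963, plus strand) went the other way. It stood at 9.70, 8.76 and 7.73 CPM in vaseline, 21.0, 12.6 and 13.8 CPM in IMQ, and 12.5, 15.4 and 14.1 CPM in bergapten libraries. All challenged libraries lay above all vaseline libraries, with IMQ replicate 1 the highest. Alox5ap rose with IMQ by 0.85 (SE 0.20, adjusted p = 0.00663). Gm19719 overlaps it on the opposite strand and had 94 reads in all, against 2144 for Alox5ap, and Gm43621 likewise overlaps Ptgs1, with 59 against 8425 reads; whether counting used strand is not given in the sources used here. Neutrophil markers moved with Alox5ap: 8 of 8 rose, where 23.0% of all genes tested did. Ly6g, Trem1 and Mmp8, at means of 0, 0.155 and 0.352 CPM in vaseline, were tested through their reads in challenged libraries. Their rise therefore had to appear. The summed level of the 8 was 16.2 to 23.9 CPM in vaseline, 129.5 to 382 CPM in IMQ and 135 to 210.1 CPM in bergapten libraries. IMQ replicate 1 was the highest there too. Macrophage markers, of which 6 of 9 rose and none was at 0, summed to 1637 to 1992, 2106 to 3326 and 2368 to 2853 CPM. The part of these cells in the Alox5ap level was not tested. Dendritic and Langerhans cell markers moved with Alox5 in the first comparison: 5 of 8 fell and 1 rose with IMQ, none was at 0, and the sum was 429 to 455 CPM in vaseline and 150.0 to 245 CPM in IMQ. With bergapten that sum was 367 to 446 CPM, while Alox5 was at 16.1 to 20.7 CPM. Most neutrophil, macrophage and mast cell markers went the other way from Alox5. With IMQ 8 of 8, 6 of 9 and 6 of 8 were called higher and none was called lower. Of all genes tested 23.0% rose and 20.2% fell. Csf1r (340.5 to 280.1 CPM), Mcpt4 (64.7 to 55.2 CPM) and Ms4a2 (4.03 to 3.88 CPM) were lower without a call. The mast cell marker Fcer1a, called higher, was scarce in vaseline skin, at a mean of 0.476 CPM. The part of any of these cells in the Alox5 level was not tested.

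Alox15 encodes the mouse leukocyte-type lipoxygenase, known from eosinophils and resident macrophages. Alox15 (ENSMUSG00000018924, chromosome 11, 70234978 to 70242857, minus strand) stood at 5.15, 6.41 and 8.03 CPM in vaseline libraries. In IMQ libraries it was at 0.728, 0.377 and 1.42 CPM, from only 14, 7 and 28 reads. With bergapten it was at 1.61, 3.33 and 1.68 CPM, from 27, 67 and 33 reads. The 3 groups did not overlap, with vaseline highest and IMQ lowest. Alox15 fell 7.65-fold with IMQ (-2.94, SE 0.45, adjusted p = 0.000569), the largest fall among the 10 genes. Eosinophil markers moved with it: 2 of the 3 tested fell, and the sum of all 5 was 6.03 to 10.4 CPM in vaseline and 0.935 to 2.39 CPM in IMQ libraries, with Epx at 0 in both groups. With bergapten the sum was 2.15 to 4.47 CPM. Most macrophage markers went the other way from Alox15 with IMQ, with 6 of 9 called higher and none called lower. Csf1r was lower without a call (340.5 to 280.1 CPM). The part of either cell type in the Alox15 level was not tested.

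Alox12 encodes the platelet-type lipoxygenase. Alox12 (ENSMUSG00000000320, chromosome 11, 70132283 to 70146179, minus strand) stood at 9.70, 8.96 and 9.63 CPM in vaseline, 9.72, 13.2 and 14.9 CPM in IMQ, and 14.7, 12.5 and 14.2 CPM in bergapten libraries. IMQ replicate 1 was just above the highest vaseline library, and the other IMQ libraries were higher. The difference between IMQ and vaseline did not pass (0.42, SE 0.17, adjusted p = 0.0672). Without IMQ replicate 1 it did (adjusted p = 0.0149). The sum of the platelet markers was 56.5 to 72.8 CPM in vaseline, 29.6 to 51.9 CPM in IMQ and 30.5 to 40.2 CPM in bergapten libraries. Most of it was Pf4, the 1 of 4 tested that fell with IMQ (53.1 to 27.8 CPM). Of the others Ppbp and Gp1ba were higher and Itga2b lower without a call, and the median log2 fold change of the 4 was 0.10. None of the 6 was at 0, and their part in the Alox12 level was not tested.

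Alox12 and Alox15 share their region of chromosome 11 with other lipoxygenase genes, which moved in both directions. Alox8, the mouse 8-lipoxygenase (69074758 to 69088669), went from 1.48, 1.11 and 0.951 CPM in vaseline to 81.8, 50.8 and 215 CPM in IMQ libraries (log2 fold change 6.60, SE 0.67, adjusted p = 0.000156) and stood at 91.7, 137 and 138 CPM with bergapten. Every challenged library lay far above every vaseline library. As with the phospholipases, how reads shared between copies of the family were counted is not given. Alox12b, whose product starts the oxidation of barrier lipids, rose by 1.97 (SE 0.11, adjusted p = 1.39e-06), while its partner enzyme in that step, Aloxe3, did not pass (0.41, SE 0.17, adjusted p = 0.0766). Alox12e, the mouse epidermis-type 12-lipoxygenase, went from 262, 196 and 212 CPM to 13.0, 90.6 and 20.8 CPM (-2.43, SE 0.68, adjusted p = 0.0219), and it missed the threshold without IMQ replicate 3 (adjusted p = 0.0755). Sebaceous gland markers fell as well: 6 of 6 passed, none was at 0, and the sum was 956 to 1107 CPM in vaseline and 37.9 to 88.3 CPM in IMQ libraries. Their part in the Alox12e level was not tested.

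The second comparison asks how the genes differed in IMQ skin that received bergapten gel. The groups did not overlap for Ptgs2, Alox15 and Ptgs1, as was so for 26.4% of all genes tested, but none of these differences passed the edgeR test. Ptgs2 went from 20.1 ± 7.45 to 4.67 ± 2.01 CPM (SD, n = 3 each), a log2 difference of -2.10 (SE 0.52, 95% interval -3.28 to -0.91, adjusted p = 0.0574). It passed the DESeq2 Wald test (adjusted p = 0.000317). The 10 other alternatives gave differences of -2.41 to -1.76 and did not pass. Alox15 went from 0.843 ± 0.532 to 2.21 ± 0.972 CPM, a difference of 1.38 (SE 0.46, interval 0.36 to 2.40, adjusted p = 0.115). It passed in DESeq2 (adjusted p = 0.0359) and without IMQ replicate 3 (adjusted p = 0.0289). Ptgs1 went from 38.2 ± 2.44 to 46.7 ± 3.70 CPM (0.29, SE 0.09, interval 0.10 to 0.48, adjusted p = 0.0832). Beside these differences 2 of 8 neutrophil markers were called lower, and the median log2 difference of the 8 was -1.60. All but Csf3r had a negative log2 difference. Csf3r went from 78.9 to 108 CPM without a call, and the sum of the 8 overlapped between the groups. Of the eosinophil markers 0 of 3 were called, and of the dendritic and Langerhans cell markers 4 of 8 were called higher. Their part was not tested. The IMQ libraries enter both this and the first comparison, so a high or low IMQ value moves both.

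For the other 7 genes the IMQ and bergapten libraries overlapped. Ptges differed by -0.28 (SE 0.14, interval -0.59 to 0.04, adjusted p = 0.277) and passed without IMQ replicate 2 (adjusted p = 0.0275). Pla2g4e differed by -0.18 (interval -0.49 to 0.13), Alox5ap by -0.18 (interval -0.62 to 0.26), Alox12 by 0.13 (interval -0.24 to 0.50) and Alox5 by 0.08 (interval -0.47 to 0.63). For Pla2g4d, at 21.9 ± 12.6 and 19.7 ± 4.09 CPM, the interval of the difference ran from -1.12 to 0.81, and for Pla2g2f from -1.34 to 0.61. For 5 of these 7 genes (Alox5, Alox5ap, Alox12, Pla2g2f and Pla2g4d), leaving out 1 library turned the sign of a difference that had not passed.

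**Figure D4:**
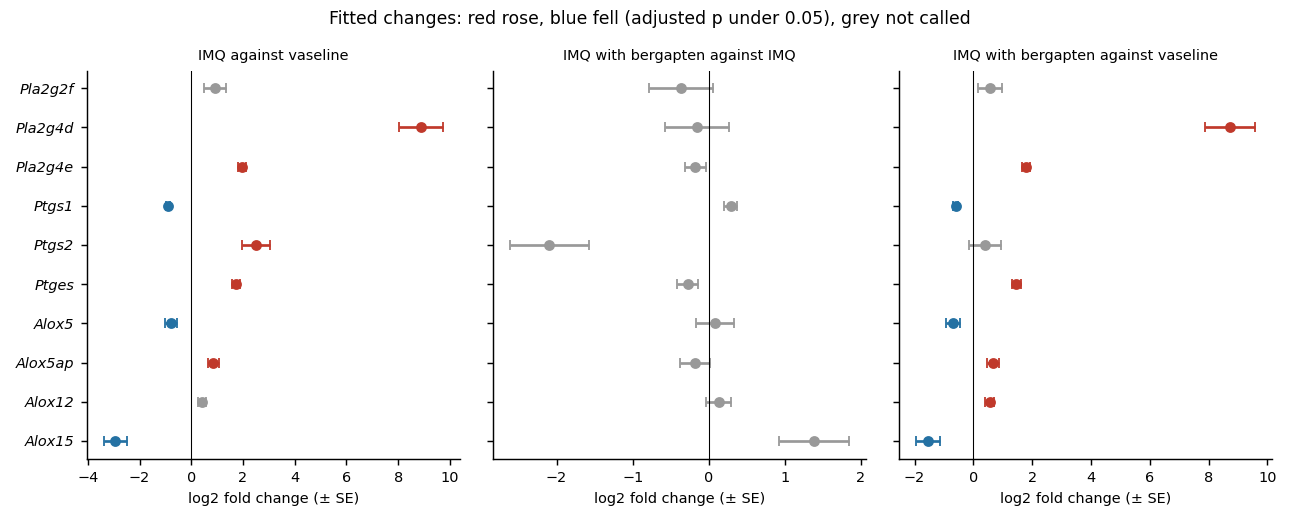
Fitted log2 fold change with its SE for each of the 10 genes in the 3 comparisons; red rose, blue fell and grey did not pass at an adjusted p below 0.05. In the middle panel all 10 genes are grey, with Ptgs2 at -2.10 and Alox15 at 1.38 farthest from 0.

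The third comparison sets skin with IMQ and bergapten against vaseline skin. Pla2g4d had a ratio of summed reads of 503 (1128 against 2 reads, exact 95% interval 139 to 4158). Among the rises, Pla2g4e had a log2 fold change of 1.79 (SE 0.14, adjusted p = 1.36e-05) and Ptges one of 1.46 (SE 0.14, adjusted p = 4.72e-05). Ptgs1 fell by 0.61 (SE 0.09, adjusted p = 0.000378). Ptgs2 did not pass (0.40, SE 0.54, interval -0.83 to 1.62, adjusted p = 0.596), and its groups overlapped. The groups did not overlap for 8 of the 9 genes other than Pla2g4d, Ptgs2 being the exception, and for 59.2% of all genes tested.

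The 4 genes of the lipoxygenase branch also passed in this comparison, each with a call that some fits without 1 library lost. Alox15 fell by 1.55 (SE 0.41, adjusted p = 0.0129), lost without bergapten replicate 3 (adjusted p = 0.0548). Alox5 fell by 0.70 (adjusted p = 0.0456), lost in all 6 fits without 1 library (0.0552 to 0.12). Alox5ap rose by 0.68 (adjusted p = 0.0222), lost in 4 of the 6 (adjusted p up to 0.1). Alox12 rose by 0.55 (adjusted p = 0.0249), lost in 5 of the 6 (adjusted p up to 0.101). This comparison and the first share the vaseline libraries.

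Per length, on the FPKM scale, the order of mean levels changed with the challenge. In vaseline skin Pla2g2f was highest at 42.8 FPKM, followed by Ptgs1 at 23.9, Ptges at 14.6, Pla2g4e at 10.5, Alox5 at 8.23, Alox5ap at 6.72, Alox12 at 3.03, Alox15 at 2.61, Ptgs2 at 0.773 and Pla2g4d at 0.0108. Alox5 and Alox5ap overlapped in that order, as did Alox12 and Alox15. In IMQ skin Pla2g2f stayed first at a mean of 83.2 FPKM, but with libraries from 47.5 to 148 it overlapped Ptges at 50.8 and Pla2g4e at 43.0. Ptgs1 came next at 13.3 FPKM, within the spread of Alox5ap at 12.7. Pla2g4d at 6.05, Alox5 at 5.01, Ptgs2 at 4.54 and Alox12 at 4.20 FPKM overlapped one another, and Alox15 was last at 0.355. With bergapten the first 7 genes had the same order as in IMQ skin, from Pla2g2f at 68.0 FPKM through Ptges at 43.0, Pla2g4e at 39.0, Ptgs1 at 16.8, Alox5ap at 11.5 and Pla2g4d at 5.51 to Alox5 at 5.42. Ptges and Pla2g4e overlapped there. Alox12 at 4.75 FPKM stood next, with libraries that overlapped those of Pla2g4d and Alox5, and Ptgs2 at 1.08 and Alox15 at 0.943 were last and overlapped.

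Other genes followed these patterns over the 9 libraries. Likeness was measured as the root mean square difference of log2 CPM, centred on each gene's own mean, among 14081 tested genes. Ptgs2 was nearest to Areg (0.408), the growth factor amphiregulin, and to Cxcl1 (0.448), a chemokine that attracts neutrophils. Pla2g4e was nearest to Myo5b (0.113) and to Alox12b (0.114). Alox15 was nearest to St8sia5 (0.177) and to Ccr3 (0.286), an eosinophil chemokine receptor that is also in the marker list above. Pla2g4d was nearest to Cdhr1 (0.383) and to the cystine transporter gene Slc7a11 (0.436), Ptges to Fam83b (0.144) and Ms4a6c (0.151), and Pla2g2f to Cpa4 (0.169) and Iffo2 (0.185). Ptgs1 was nearest to Tecr (0.0965) and Pigp (0.0999), Alox5 to Lss (0.126) and Mapt (0.127), Alox5ap to Cyren (0.140) and Tmem176b (0.143), and Alox12 to Plxnb1 (0.0771) and Nek4 (0.0799). Small distances are easier to reach for genes that vary little, so the values are not comparable between the 10 genes.

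Of 54 tested genes on a wider list of the same pathway, 20 rose and 20 fell with IMQ, where 23.0% of all genes tested rose and 20.2% fell. The median log2 fold change of the 54 was 0.08, against 0.03 over all genes. The counts by role below are small and stand beside the same shares. Pla2g4b, Gpr31b and Ptgdr2 passed the filter on low counts only through challenged libraries, and Ptgdr only through vaseline libraries. Their differences from vaseline therefore had to appear, and they are kept in these counts. Of the 11 phospholipases outside the 10 genes 3 rose and 6 fell. Besides those named above, Pla2g7, the plasma enzyme that breaks down platelet-activating factor, rose by 2.47 (SE 0.27, adjusted p = 0.000142). Of 2 genes acting on phospholipases, the activator Plaa rose by 0.63 (adjusted p = 0.000232) and the inhibitor Anxa1 did not pass (-0.06, adjusted p = 0.685).

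Of 9 further prostaglandin and thromboxane synthesis genes 2 rose and 3 fell. Ptgis, the prostacyclin synthase, went from 13.6 to 1.59 CPM (-3.08, SE 0.30, adjusted p = 3.19e-05). Akr1b3 and Prxl2b, whose products can make prostaglandin F, fell by 0.50 and 0.70 (adjusted p = 0.00964 and 0.00285). Ptges3, a cochaperone also described as a prostaglandin E synthase, rose by 0.55 (adjusted p = 0.00357). Of 5 genes of prostaglandin breakdown and transport 1 rose and 3 fell. Hpgd, which inactivates prostaglandins, fell by 0.96 (SE 0.28, adjusted p = 0.0222, lost in 2 of 6 fits without 1 library). The exporter gene Abcc4 fell by 0.69 (adjusted p = 0.000391), the reductase gene Ptgr2 by 0.49 (adjusted p = 0.0138), and the uptake carrier gene Slco2a1 rose by 0.65 (adjusted p = 0.0136, lost in 2 of 6).

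Of 6 leukotriene genes 4 rose and 1 fell. Lta4h, which makes leukotriene B4, rose by 0.37 (SE 0.10, adjusted p = 0.0152, lost in 2 of 6 fits without 1 library). Mgst2, a glutathione transferase that can make leukotriene C4, rose by 1.20 (SE 0.17, adjusted p = 0.000396). Ltc4s, the leukotriene C4 synthase, fell from 1.76 to 0.434 CPM (-1.99, SE 0.67, adjusted p = 0.0353), which missed the threshold in 4 of 6 such fits. Of 6 genes of the lipoxygenase and hepoxilin pathway 3 rose and 1 fell; among them Ephx3, an epoxide hydrolase of the epidermis, rose by 0.75 (SE 0.12, adjusted p = 0.000714).

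Of 15 eicosanoid receptor genes 6 rose and 6 fell, with Gpr31b and Ptgdr2 among the rises and Ptgdr among the falls. Gpr31b was at 0 CPM in every vaseline library and Ptgdr2 at 0.119 to 0.493 CPM. Both leukotriene B4 receptor genes rose: Ltb4r1 went from 9.40 ± 0.748 to 30.8 ± 5.56 CPM (SD, n = 3 each; 1.71, SE 0.17, adjusted p = 4.1e-05) and Ltb4r2 from 11.6 to 33.7 CPM (1.54, SE 0.16, adjusted p = 3.98e-05). The neutrophil sums given above rose beside them, and their part was not tested. Fpr2, a receptor for formyl peptides and lipid mediators, rose by 3.72 (SE 0.54, adjusted p = 0.000779). The prostaglandin E2 receptor genes split. Ptger3 fell from 58.2 ± 6.18 to 11.1 ± 3.86 CPM (-2.38, SE 0.24, adjusted p = 5.03e-05), Ptger2 rose from 0.914 to 2.72 CPM (1.57, SE 0.32, adjusted p = 0.00308), and Ptger4 fell by 0.55 (SE 0.17, adjusted p = 0.0234), which missed the threshold in 3 of 6 fits without 1 library.

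**Figure D5:**
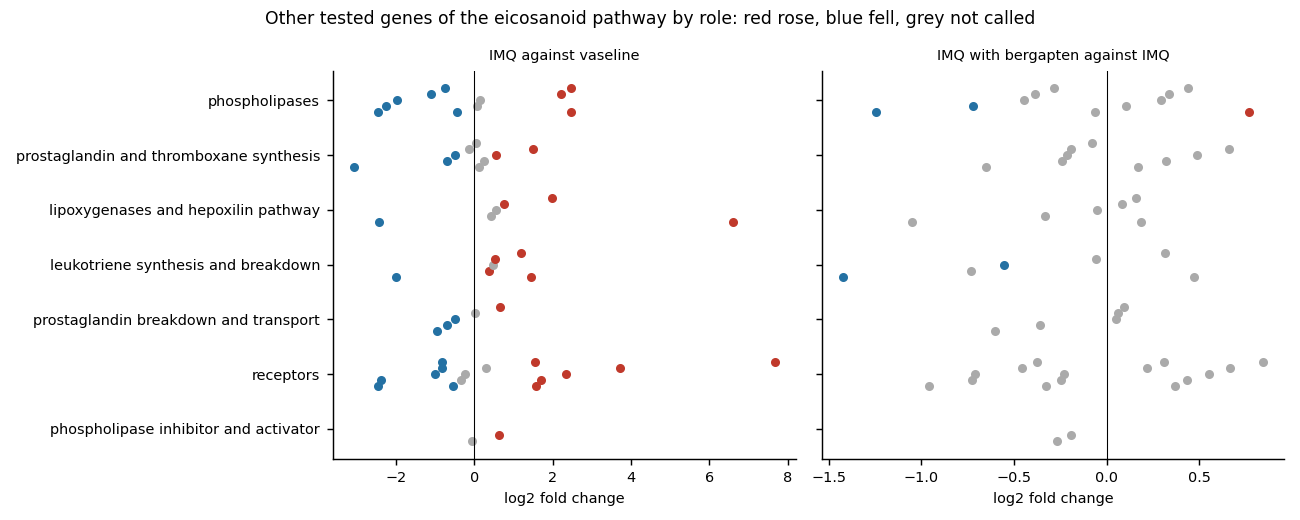
Log2 fold change of the 54 tested genes of the wider pathway list, 1 point per gene, in rows by role, for IMQ against vaseline on the left and IMQ with bergapten against IMQ on the right; red rose, blue fell and grey did not pass. On the left 20 genes are red and 20 blue, and on the right 1 is red and 4 are blue.

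Between bergapten and IMQ skin 1 of the 54 genes of the wider list rose and 4 fell, where 2.18% of all genes tested rose and 2.65% fell. Pla2g2d rose from 6.74 ± 0.864 to 11.5 ± 2.34 CPM (0.77, SE 0.18, adjusted p = 0.0422). Pla2g7 fell from 136 ± 45.8 to 57.3 ± 13.1 CPM (-1.25, SE 0.26, adjusted p = 0.0345), and Pla2g12a, named here after its values were seen, fell by 0.72 (SE 0.12, adjusted p = 0.0123). Dpep1 and Ggt5, whose products trim cysteinyl leukotrienes, fell by 1.43 (SE 0.26, adjusted p = 0.0236) and 0.56 (SE 0.13, adjusted p = 0.0442). Each of the 5 calls was lost in 2 to 5 of the 6 fits without 1 library. Against vaseline 16 of the 54 rose and 16 fell with bergapten, where 20.9% of all genes rose and 19.5% fell. Gpr31b, Ptgdr2 and Ptgdr, whose differences from vaseline had to appear, are among these calls as well.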

How the data were processed

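Raw read counts per gene, 1 column per library, were deposited by the authors together with FPKM values, also deposited by the authors, and a sheet of raw reads per library. Trimmomatic, HISAT2, HTSeq 0.6.0 and the GRCm39 build are named in the submitters' processing notes. The annotation release and the strand setting of the counting are not given in the sources used here. The table has 56861 rows, of which 2 name no gene (broken-off annotation text with no reads) and were left out. Counts were tested with edgeR 4.0.16 in R 4.3.3 (robust quasi-likelihood F test, TMM scaling), with all 9 libraries in 1 model, so that the groups shared an estimate of the spread. The filterByExpr step required both a minimum of 10 reads, scaled for depth, in enough libraries and a total of 15 reads. It left 18005 genes, and the common biological coefficient of variation was 0.187. Two-sided p-values were adjusted over all tested genes by the Benjamini-Hochberg method, and "rose" and "fell" mean an adjusted p below 0.05. CPM were computed from the counts and scaled library sizes. Intervals of log2 differences are 95% and come from the fit. FPKM served only for levels between genes and for the Ptgs2 to Ptgs1 ratio, and the length behind them is not the length column of the table. The procedure was tested on simulated counts. The alternatives were RLE size factors, DESeq2 1.42.0, no filter, a fit of only the 6 libraries compared, the replicate number as a block, and leaving out each library.

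The 10 genes and all lists were chosen with earlier results of these data known. All 10 genes are described, and of the wider list up to 4 genes per role with the smallest p, with Alox12b, Aloxe3, Pla2g4a, Pla2g4b, Pla2g4f, Ltb4r1, Lta4h, Ltc4s, Hpgd, Ptger4 and Ptger2 always, some of which are not printed. Of 62 listed pathway genes 61 matched exactly 1 row. The mast cell, basal keratinocyte, endothelium and skeletal muscle marker lists had 6 of 8, 4 of 6, 2 of 5 and 0 of 4 genes called higher with IMQ. They had 0, 1, 1 and 4 called lower, and the fibroblast list had 1 called higher and 5 called lower of 6.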

Additional observations from a re-analysis of the deposited data

How the results depend on the processing

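Of 737 alternative values of the named genes, 645 had the same direction and the same side of the threshold, 73 lost a call, 8 gained one and 11 reversed. The reversals were in differences that had not passed, each on leaving out 1 library. Between bergapten and IMQ, Alox5 ranged from -0.158 (without IMQ replicate 2) to 0.403, and came to -0.0006 without bergapten replicate 2. Alox5ap ranged from -0.316 to 0.081 and Alox12 from -0.0338 to 0.266 (both reversed without IMQ replicate 1), Pla2g2f from -0.667 to 0.411 (without IMQ replicate 2) and Pla2g4d from -0.541 to 0.269 (without IMQ replicate 3). Between bergapten and vaseline, Ptgs2 ranged from -0.0202 (without vaseline replicate 1) to 1.06. Between IMQ and vaseline, Pla2g4a ranged from -0.0227 (without IMQ replicate 3) to 0.161, with -0.0004 and -0.0003 without vaseline replicate 3 and IMQ replicate 1, and Anxa1 from -0.196 to 0.0196 (without vaseline replicate 3).

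Of all genes, 869 passed between bergapten and IMQ, against 489 with the replicate block, 1803 in DESeq2 and 130 in the fit of the 6 libraries alone. That fit has fewer samples to estimate the spread. It also leaves out the vaseline libraries, whose mean variance of log2 CPM was 0.1002 against 0.238 in IMQ libraries. The reason for its lower count was not tested. Leaving out 1 library gave 139 to 1711: the count was 1711 without IMQ replicate 3, and without bergapten replicates 1, 2 and 3 it was 139, 332 and 176. Of the 10 genes, 0 passed in that comparison, 2 in DESeq2 and 0 to 1 without a library. For IMQ against vaseline 7783 genes passed (6218 to 8212 without a library), and 8 of the 10, Pla2g4d included (7 to 9). For bergapten against vaseline 7270 genes passed (5550 to 6306 without a library), and 8 of the 10, Pla2g4d again included (4 to 6). Pla2g4d had to differ from vaseline, as said above. The difference of the log2 Ptgs2 to Ptgs1 ratio was 3.06 to 4.10 and -2.76 to -2.09 without a library.

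Replicate numbers are shared by the groups in the titles, but deviations of same-numbered libraries correlated at -0.0909 to 0.175, so they were not taken as pairs. With the replicate block, 7263, 489 and 6740 genes passed in the 3 comparisons, and 7, 0 and 7 of the 10 genes. Both counts against vaseline include Pla2g4d. Alox5 lost its call against vaseline under the block both with IMQ and with bergapten (adjusted p = 0.0557 and 0.0853). Alox15 had 7 to 28 reads in the IMQ libraries, where counting error adds to the spread between libraries. Which of these limits its tests was not tested.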
